A study of Homo sapiens with 6 samples.

Results

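Transcripts of 9 CXC chemokine genes were examined in MDA-MB-231 cells: CXCL1, CXCL2, CXCL3, CXCL5, CXCL6, CXCL8, CXCL12, CXCL14 and CXCL16. The genes were taken by symbol, 9 of the 54259 symbols in the deposited count table. The MDA-MB-231 line was derived from human breast cancer and is in wide use. The RNA-Sequence data held 3 shBry libraries, from cells with a hairpin RNA directed at the transcription factor brachyury, and 3 shNC libraries, from cells with a control hairpin. Every library was therefore from a cell line carrying a hairpin, and cells with no hairpin were not analysed here. The hairpin sequence used in MDA-MB-231, whether each line was a clone, and whether the replicates were separate cultures are not given in the sources used here, so an effect of the hairpin and an effect of brachyury cannot be told apart, and p-values measure the spread between these libraries only. The genes were listed because of how they differed between shBry and shNC in these same libraries. Their levels and fold changes are therefore given as a description, with no test.

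CXC chemokines are small secreted proteins that bind G protein-coupled receptors and guide migrating cells. CXCL1, CXCL2, CXCL3, CXCL5, CXCL6 and CXCL8 (interleukin 8) carry an ELR motif, act on CXCR2 (CXCL6 and CXCL8 also on CXCR1), and attract neutrophils. Their genes lie in a cluster on chromosome 4 and are classical targets of NF-kappa-B downstream of interleukin 1 and tumor necrosis factor, and several of their mRNAs are short-lived through AU-rich elements. CXCL12 acts on CXCR4 and ACKR3, CXCL16 is made as a membrane protein that binds CXCR6 and is shed by ADAM10 and ADAM17, and CXCL14 is a chemokine of epithelia. Cells of the MDA-MB-231 line are known for secreting interleukin 8.

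In GENCODE 29 on GRCh38, 6 of the 9 genes lay within 359 kb of chromosome 4. In order of position these were CXCL8 (chr4:73740506-73743716, plus strand), CXCL6 (chr4:73836497-73849064, plus), CXCL1 (chr4:73869393-73871242, plus), CXCL5 (chr4:73995642-73998779, minus), CXCL3 (chr4:74036589-74038807, minus) and CXCL2 (chr4:74097035-74099293, minus). CXCL14 was on chromosome 5 (chr5:135570679-135579279, minus), CXCL12 on chromosome 10 (chr10:44370165-44386493, minus) and CXCL16 on chromosome 17 (chr17:4733526-4739922, minus). All 9 are annotated as protein-coding.

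Promoters were taken from RefSeq on GRCh38.p14, where 8 of the 9 genes had an entry and CXCL16 had none. The 150 bases before the transcript start are shown for the 6 genes of the chromosome 4 cluster, because the same letters GGAATTTCC, a binding motif of NF-kappa-B (kB), occur in each at nearly the same distance from the start. Capitals mark the motif, and each sequence runs 5′ to 3′ on the strand of the gene. CXCL8, CXCL1, CXCL2 and CXCL3 were the genes with high counts in shBry. Their windows were chr4:73740419-73740568 and chr4:73869243-73869392 on the plus strand, and chr4:74099196-74099345 and chr4:74038690-74038839 on the minus strand.
CXCL8: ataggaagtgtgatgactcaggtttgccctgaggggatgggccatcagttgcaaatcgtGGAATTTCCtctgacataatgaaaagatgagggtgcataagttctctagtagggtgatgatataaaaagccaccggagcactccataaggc
CXCL1: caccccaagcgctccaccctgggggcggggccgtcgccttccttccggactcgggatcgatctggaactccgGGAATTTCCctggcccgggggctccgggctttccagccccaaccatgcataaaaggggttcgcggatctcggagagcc
CXCL2: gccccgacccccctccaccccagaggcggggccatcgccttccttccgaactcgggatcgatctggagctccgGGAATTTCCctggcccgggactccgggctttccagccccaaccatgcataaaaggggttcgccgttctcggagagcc
CXCL3: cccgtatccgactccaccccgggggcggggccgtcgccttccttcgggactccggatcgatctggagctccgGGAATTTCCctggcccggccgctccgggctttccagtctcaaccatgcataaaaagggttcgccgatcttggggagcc
The other two genes of the cluster, CXCL5 (chr4:73998678-73998827, minus strand) and CXCL6 (chr4:73836528-73836677, plus strand), had at most 3 counts in any library.
CXCL5: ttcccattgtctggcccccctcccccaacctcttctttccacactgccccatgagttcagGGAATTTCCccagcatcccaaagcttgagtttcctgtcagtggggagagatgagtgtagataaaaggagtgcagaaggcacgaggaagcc
CXCL6: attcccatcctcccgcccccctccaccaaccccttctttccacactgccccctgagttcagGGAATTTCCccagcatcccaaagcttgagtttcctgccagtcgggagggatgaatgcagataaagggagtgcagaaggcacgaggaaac

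The first base of the kB motif lay 91 bases before the start in CXCL8, 90 in CXCL5, 89 in CXCL6, 78 in CXCL1 and in CXCL3, and 77 in CXCL2, always in the sense direction. These distances are from the RefSeq start. In CXCL2, CXCL3, CXCL5 and CXCL6 the motif lay inside the GENCODE gene bounds given above, which reach further. Promoters of CXCL12 and CXCL14 had no match from 250 bases before to 50 bases after the start. Among 35116 promoters of the same length, 162 (0.461%) held the motif on either strand. With the position limited to the span set by the 6 genes themselves and to the sense direction, 11 promoters (0.0313%) of 11 genes held it. A match to the AP-1 motif TGANTCA, the site of FOS and JUN proteins, lay 137 bases before the start of CXCL8 and 92 before that of CXCL14, and 7.71% of all promoters held this motif. TATAAA was found in CXCL8 alone among the 8, at 31 bases before the start, and in 11.5% of all promoters. No AP-1 or TATA match overlapped a kB match. These matches are of letters only, and binding was not measured in the data used here. The motif was present in the 4 genes with high counts and equally in CXCL5 and CXCL6, so its presence did not separate the genes read in shBry from those that were not.

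**Figure D1:**
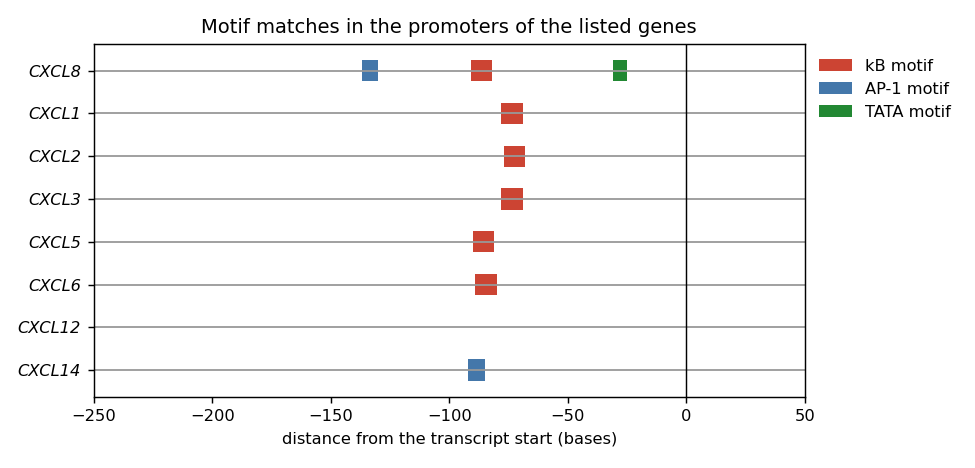
Positions of the kB, AP-1 and TATA motifs in the promoters of 8 listed genes, as distance in bases from the RefSeq transcript start (negative values lie before the start). The 6 genes of the chromosome 4 cluster hold a kB match whose first base lies between 91 and 77 bases before the start, and CXCL12 holds no match of any of the 3 motifs.

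Between 19319411 and 22985371 counts were listed per library. At this depth, 3 counts, the upper limit that a count of 0 allows, corresponded to 0.131 to 0.155 CPM (counts scaled to a library of fixed size), and this limit covers counting error only. Brachyury, listed as T, had 0 counts in all 6 libraries, so its knockdown could not be checked. Markers expected in MDA-MB-231 cells (VIM, CD44, AXL, CAV1, LGALS1, S100A4) summed to 6232 to 6526 CPM in shNC and 5945 to 6386 in shBry. Most of this sum was VIM, and 2 of these 6 genes were called lower in shBry, CAV1 (189 to 87.6 CPM) and S100A4 (16.1 to 8.60 CPM). Of 6 genes expected to be low in this line, ESR1, PGR, CDH1 and KRT20 had at most 2 counts in any library, GATA3 had 201 to 313 counts, and EPCAM had 21 to 40 counts in shNC and 68 to 113 in shBry, where it was called higher. Summed, these 6 gave 10.5 to 13.6 CPM in shNC and 16.3 to 18.9 CPM in shBry. A list of 13 leukocyte markers summed to 13.3 to 13.9 CPM in shNC and 29.5 to 34.6 CPM in shBry, of which ITGB2 alone gave means of 11.5 and 30.5 CPM. ITGB2 was called higher in shBry, and CD14 was called lower (1.85 to 0.759 CPM). The defining leukocyte markers PTPRC and TYROBP were at 0 in all 6 libraries. A list of 12 fibroblast and endothelial markers summed to 40.7 to 48.4 CPM in shNC and 40.8 to 44.0 in shBry. Most of this sum was COL1A1 (means of 21.89 and 21.96 CPM), PDGFRB (10.62 and 11.15) and ACTA2 (7.28 and 6.68). KDR was called lower in shBry (2.90 to 1.42 CPM), and DCN was at 0. The design text names pericardial RNA where the sample labels name the cell line. In bulk RNA, a change in the number of cells that express a gene and a change in RNA per cell cannot be told apart.

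Counts of 4 of the 9 genes were far higher in shBry than in shNC: CXCL8, CXCL2, CXCL1 and CXCL3, all ELR chemokines of the chromosome 4 cluster. CXCL16 had low counts in both groups, which overlapped. CXCL5, CXCL6, CXCL12 and CXCL14 had between 0 and 3 counts in any library. By edgeR's expression filter, 5 of the 9 genes could be tested among 15277, and 4 of these 5 passed an adjusted p of 0.05 and a fold change of 1.5 in the higher direction, where 17.1% of all tested genes did. In the lower direction 15.2% of all tested genes passed, and none of the 5 did. The same 4 had every shBry value above every shNC value, as did 30.6% of all tested genes. The genes were chosen on this contrast, so nothing is read from these shares.

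CXCL8 had 31, 36 and 40 counts in the 3 shNC libraries and 5305, 7313 and 6704 counts in the 3 shBry libraries. Scaled to library size with TMM, these were 1.420, 1.702 and 2.003 CPM against 285.6, 308.2 and 297.2 CPM. The lowest shBry library was thus more than 100 times above the highest shNC library, and the 3 shBry values lay close together. The mean was 1.71 CPM (SD 0.292, n = 3) in shNC and 297 CPM (SD 11.3, n = 3) in shBry, and the fitted log2 fold change of shBry over shNC was 7.44 (SE 0.12), a fold change of 174. Among all 15277 tested genes this was the 7th largest rise.

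CXCL2, which attracts neutrophils through CXCR2, had 35, 27 and 31 counts in shNC and 1653, 1994 and 1926 in shBry. Means were 1.48 CPM (SD 0.176) and 86.1 CPM (SD 2.56). Its log2 fold change was 5.86 (SE 0.13), or 58.1-fold, the 21st largest. CXCL1, a close relative of CXCL2 and CXCL3, was first known as a melanoma growth factor. It had the highest counts of the 4 in shNC, with 76, 54 and 61, and 1862, 2336 and 2343 in shBry. Its means were 3.03 CPM (SD 0.465) and 101 CPM (SD 2.76), and its log2 fold change was 5.05 (SE 0.12), or 33.2-fold, the 33rd largest. CXCL3 was the weakest of the 4 in both groups, with 23, 17 and 18 counts in shNC and 385, 489 and 486 in shBry. Its log2 fold change was 4.50 (SE 0.17), or 22.6-fold, the 40th largest, from 0.920 CPM (SD 0.126) to 21.0 CPM (SD 0.510). Of all tested genes, 49 (0.321%) had a fold change above 16 in this direction, and these 4 were among them. In none of the 4 genes did any shBry library come near the range of shNC.

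**Figure D2:**
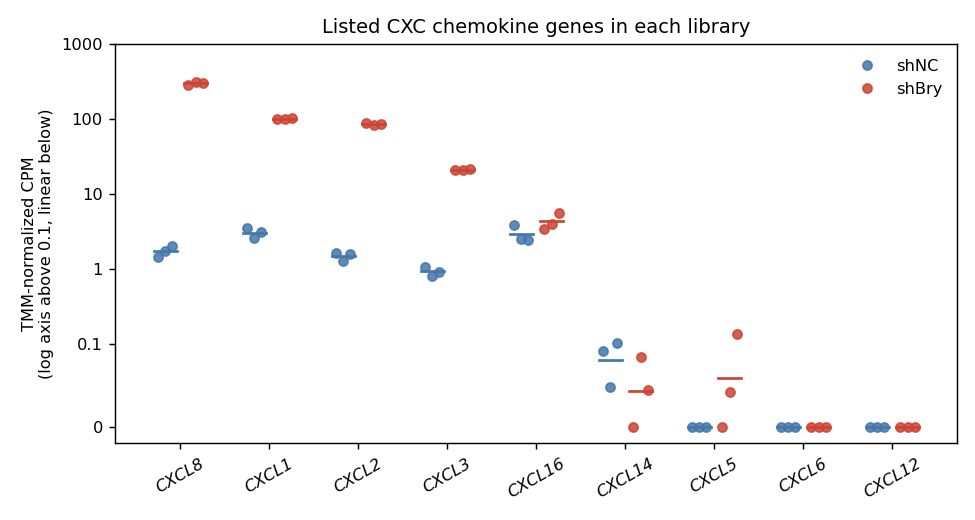
Level of each listed gene in each library, in TMM-normalized CPM on an axis that is logarithmic above 0.1 and linear below, with a bar at the mean of 3 libraries. CXCL8, CXCL1, CXCL2 and CXCL3 lie at or below 3.48 CPM in shNC and at or above 20.6 CPM in shBry, the CXCL16 values of both groups overlap, and the last 4 genes lie at or near 0.

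The spread between replicates of the 4 genes was mostly near counting error. In shNC, where counts were few, the coefficient of variation of the CPM was 17.1% for CXCL8, 15.4% for CXCL1, 13.7% for CXCL3 and 11.9% for CXCL2, while Poisson counting alone gives 16.7%, 12.5%, 22.7% and 18.0%. In shBry it was 3.81% for CXCL8, 2.74% for CXCL1, 2.97% for CXCL2 and 2.43% for CXCL3, with 1.25%, 2.14%, 2.32% and 4.70% from counting alone. Among these, the excess over counting error was largest for CXCL8 in shBry. CXCL16 varied far more than counting gives in both groups, with 27.6% against 12.7% in shNC and 26.2% against 10.3% in shBry.

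CXCL16, the membrane-anchored ligand of CXCR6 and scavenger receptor, had 84, 53 and 48 counts in shNC and 63, 93 and 125 in shBry. In CPM these were 3.85, 2.51 and 2.40 against 3.39, 3.92 and 5.54, so that 1 shNC library lay above a shBry library. The log2 fold change was 0.55 (SE 0.25), and 2 SE on either side reached from 0.06 to 1.05. With all libraries the gene passed neither threshold, and it passed both when shNC replicate 1 was left out (0.80) or shBry replicate 1 was left out (0.68). Of its exon bases, 3.04% lie in exons of MED11.

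CXCL5, closely related to CXCL6, had 0 counts in every shNC library and 0, 1 and 3 in shBry. CXCL14 had 2, 1 and 2 counts in shNC and 0, 2 and 1 in shBry. CXCL6 and CXCL12, the chemokine of stroma and bone marrow, had 0 counts in all 6 libraries. All of these values were at or under the limit of 3 counts, so no fold change is given, and a difference below this limit could not be detected at this depth. Along chromosome 4, CXCL6 lies between CXCL8 and CXCL1, and CXCL5 between CXCL1 and CXCL3.

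Sequence shared between paralogs can move counts between them. CXCL1, CXCL2 and CXCL3 each have a coding sequence of 321 bases, with 93.5% identity between CXCL1 and CXCL2, 90.7% between CXCL1 and CXCL3, and 94.4% between CXCL2 and CXCL3. CXCL5 and CXCL6 (342 bases each) were 87.4% identical, and CXCL8 (297 bases) was 52.4% to 55.8% identical to the other 5 genes of the cluster. The longest stretch common to CXCL2 and CXCL3 was 97 bases from coding position 9, and it is shown because a read from within it cannot be assigned to either gene.
Common coding stretch of CXCL2 and CXCL3: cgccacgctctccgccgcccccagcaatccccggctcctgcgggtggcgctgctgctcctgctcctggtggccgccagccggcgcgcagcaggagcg
Of all stretches of 50 bases in its transcripts, 12.5% of CXCL2, 6.01% of CXCL3 and 4.81% of CXCL1 occurred in transcripts of another gene, in each case of one another, and none of CXCL8 did. With the counts of CXCL1, CXCL2 and CXCL3 added into a single row, the log2 fold change was 5.26, a value that does not depend on how reads were split among the 3. Overlap with exons of other genes was 0% of exon bases for CXCL1, CXCL2, CXCL3, CXCL5, CXCL8 and CXCL12. Promoter sequences of 300 bases followed the same families, with 82.5% identity between CXCL1 and CXCL3, 71.9% between CXCL1 and CXCL2, 83.1% between CXCL5 and CXCL6, and 45.1% to 48.2% between CXCL8 and the other 7 genes with an entry.

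Levels of different genes were compared per kb of merged exon (CPM per kb). In shNC the order was CXCL1 (2.34, SD 0.359), CXCL16 (1.05, SD 0.289), CXCL2 (0.985, SD 0.117), CXCL8 (0.751, SD 0.128) and CXCL3 (0.414, SD 0.0568). The neighbours CXCL16, CXCL2 and CXCL8 did not differ beyond their spread. In shBry the order was CXCL8 (131, SD 4.98), CXCL1 (77.8, SD 2.13), CXCL2 (57.4, SD 1.71), CXCL3 (9.45, SD 0.230) and CXCL16 (1.53, SD 0.401), with every neighbour apart by more than its spread. CXCL8 went from the fourth place to the top, and CXCL16 from the second place to the last. Both orders were the same when the length of the longest transcript was used instead.

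The 4 genes also moved among all expressed genes. Of 13620 genes ranked by CPM per kb, 18.1% lay below CXCL8 in shNC and 97.7% in shBry. For CXCL1 these shares were 36.9% and 95.9%, for CXCL2 21.7% and 94.0%, and for CXCL3 11.1% and 67.4%. In shBry, CXCL3 thus stood at a moderate level, while CXCL8, CXCL1 and CXCL2 each stood above at least 94.0% of genes. CXCL16 stayed low in the ranking, with 22.6% and 28.1% of genes below it.

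The make-up of the CXC transcripts differed between the groups. Summed over the 9 genes, the level was 5.57 CPM per kb (SD 0.714) in shNC and 277 (SD 3.57) in shBry. CXCL8 made up 13.7% (SD 3.26) of the sum in shNC and 47.2% (SD 1.38) in shBry. The share of CXCL1 was 41.9% (SD 1.13) and 28.1% (SD 0.718), that of CXCL3 7.43% (SD 0.151) and 3.41% (SD 0.0688), and that of CXCL16 18.6% (SD 3.28) and 0.553% (SD 0.139). Among these 5 genes the share of CXCL2 changed least, from 17.7% (SD 0.756) to 20.7% (SD 0.872), but its values did not overlap between the groups. In counts, the 9 genes took 251, 188 and 200 counts of the shNC libraries and 9268, 12228 and 11588 counts of the shBry libraries, which was at most 0.00116% and at most 0.0532% of a library.

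**Figure D3:**
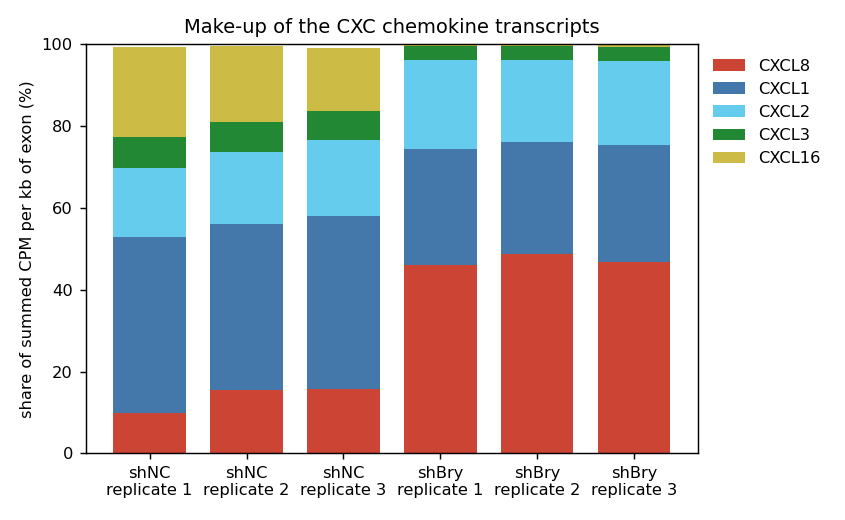
Share of each listed gene in the summed CPM per kb of exon of the 9 genes, in percent, for each of the 6 libraries. CXCL1 holds the largest share in the 3 shNC libraries (40.6% to 42.8%) and CXCL8 in the 3 shBry libraries (46.0% to 48.7%), and the part missing to the full height is CXCL5 and CXCL14.

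Ratios within a library do not depend on library size. CXCL8 over CXCL1, per length, was 0.233, 0.380 and 0.374 in the shNC libraries and 1.62, 1.78 and 1.63 in the shBry libraries. CXCL8 over CXCL2 was 0.772 (SD 0.163) in shNC and 2.28 (SD 0.152) in shBry. The ratios with CXCL8 varied most between the shNC libraries, and those among CXCL1, CXCL2 and CXCL3 varied less. CXCL2 over CXCL1 was 0.423 (SD 0.0220) in shNC and 0.738 (SD 0.0284) in shBry. CXCL3 over CXCL1 was 0.178 (SD 0.00582) in shNC and 0.121 (SD 0.000778) in shBry, and CXCL3 over CXCL2 was 0.421 (SD 0.0262) and 0.165 (SD 0.00664). None of these ratios overlapped between the groups. The near-identical genes CXCL2 and CXCL3 therefore changed by unequal amounts, with the larger change in CXCL2.

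AU-rich elements after the coding sequence mark mRNAs for rapid decay. The letters TATTTAT, the core of such an element, were counted on the sense strand after the coding sequence, overlaps allowed, in the GENCODE transcript with the longest coding sequence of each gene. There were 8 matches in CXCL2 (721 bases), 4 in CXCL8 (1252 bases), 4 in CXCL1 (706 bases) and 3 in CXCL3 (673 bases). CXCL5 had 3 (1995 bases) and CXCL12 had 1 (585 bases), while CXCL6, CXCL14 and CXCL16 had none. Of 19057 protein-coding genes with bases after the coding sequence, 27.6% had at least 1 match and 2.38% had 4 or more, at a median of 811 bases. All 4 genes with high counts in shBry held the element, and so did CXCL5 and CXCL12, whose counts were at or near 0. RNA stability was not measured.

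The other members of the family were near the limit of detection. Of 8 further CXC ligands (CXCL9, CXCL10, CXCL11, CXCL13, CXCL17, PF4, PF4V1, PPBP), none passed the filter for testing, and 5 were at 0 in all libraries. PF4, PF4V1 and PPBP lie inside the cluster between CXCL6 and CXCL5, and the largest count among them was 4, for PF4. Of 10 CXC and atypical receptors none could be tested. CXCR1 and CXCR6 were at 0 in all libraries, and CXCR2 had at most 1 count. CXCR4, the signaling receptor of CXCL12, had 3, 4 and 9 counts in shNC and 0, 6 and 1 in shBry, and ACKR3, its scavenger, had 2, 1 and 0 against 3, 11 and 1. Receptor transcripts of the abundant ligands were thus not detectable at this depth in either group.

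Of 30 CC, C and CX3C chemokine ligands, 5 could be tested. In this paragraph and those that follow, adjusted p-values come from the quasi-likelihood test in edgeR, adjusted after Benjamini and Hochberg over all tested genes, and a gene is said to rise or fall where this p is below 0.05 and the fold change above 1.5. CCL20, which attracts CCR6-bearing lymphocytes and is another NF-kappa-B target, had 2, 1 and 3 counts in shNC and 18, 29 and 44 in shBry, and it rose (log2 fold change 3.78, SE 0.53, adjusted p = 3.44e-05). With so few counts in shNC, the ratio of the summed counts was 14.6, with an exact 95% interval from counting error of 6.44 to 40.7. CCL26, an eosinophil attractant, had 10, 3 and 2 counts against 19, 13 and 31 and also rose (2.02, SE 0.55, adjusted p = 0.00674), and its log2 fold change was 2.94 without shNC replicate 1. CCL2, which attracts monocytes, fell by 1.61 on the log2 scale (adjusted p = 0.000183), from 71, 80 and 59 counts to 14, 25 and 32. CCL24 fell by 1.15 (adjusted p = 0.00151). The monocyte attractant CCL2 was thus lower in the libraries in which CXCL8, CXCL1, CXCL2 and CXCL3 were higher. CCL20 and CCL26 passed the filter for testing through their shBry counts and could hardly have been called lower. The median over the 5 tested genes was -0.58, against 0.03 over all tested genes, and it depends in part on the filter. CCL20 and CCL26 could not be tested when 10 counts were required in every library, which left 2 calls. Of 12 receptors of these ligands only CCR10 could be tested, with a log2 fold change of -0.19 (adjusted p = 0.435).

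Inducers of the CXC genes and their receptors were 25 genes, of which 21 were tested and 7 (33.3%) passed both thresholds, 6 higher and 1 lower, where 32.4% of all tested genes passed. Their median log2 fold change was -0.02. The 2 largest rises were the agonists of the interleukin 1 receptor. IL1A had 46, 66 and 62 counts in shNC and 5527, 8328 and 6635 in shBry (log2 fold change 6.82, SE 0.14, adjusted p = 2.86e-13). IL1B had 20, 37 and 25 against 827, 979 and 1089 (5.09, SE 0.18, adjusted p = 4.51e-11). In both genes every shBry library was more than 10 times above every shNC library, as it was for CXCL8. IRAK2, a kinase of the receptor complex, rose by 1.69 on the log2 scale (adjusted p = 2.04e-09), the co-receptors IL1RAP (1.05, adjusted p = 0.00015) and IL6ST (adjusted p = 4.2e-05) also rose, and so did TNFRSF1B, a receptor of tumor necrosis factor (1.26, adjusted p = 0.00011). The receptor IL1R1 itself, looked up after its values were seen, did not pass (log2 fold change -0.44, adjusted p = 0.137). TLR4, the receptor of bacterial lipopolysaccharide, was the gene that fell, with a log2 fold change of -0.89 (adjusted p = 0.00233). TNF was listed at 0 in all 6 libraries, but so were its neighbours BAG6, DDX39B, CSNK2B, VARS and NELFE, which most cells express, so its level cannot be read from this table.

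Of 26 transcription factors and their regulators that act on CXC promoters, all were tested, and 19 (73.1%) passed, each in the higher direction, where 17.1% of all tested genes passed in that direction. Their median log2 fold change was 1.08. As the list was chosen with earlier results of these data known, nothing is read from this share. ATF3, a stress-induced factor of the AP-1 and ATF family, rose from 12.1, 11.4 and 11.3 CPM in shNC to 104.7, 90.8 and 91.7 CPM in shBry (adjusted p = 2.41e-11). XBP1, a factor of the unfolded protein response, rose by 2.11 on the log2 scale (adjusted p = 2.53e-10) and JUNB, an AP-1 subunit, by 1.96 (adjusted p = 1.47e-09). The NF-kappa-B subunit RELB rose by 2.05 (adjusted p = 1.92e-09). The atypical inhibitor family member NFKBIZ, a coactivator of such genes, rose by 2.38 (adjusted p = 2.06e-09) and the feedback inhibitor TNFAIP3 (A20) rose too (adjusted p = 1.64e-09), from 7.38, 7.85 and 7.61 CPM to 36.6, 37.9 and 36.0. The log2 fold changes of these 6 genes were all smaller than those of the 4 chemokines. Of the canonical subunits, RELA (0.26, adjusted p = 0.0192) and NFKB1 (0.46, adjusted p = 0.000265) stayed under the fold change limit. REL, also canonical, rose by 0.699 (adjusted p = 0.0161), and the subunit NFKB2 rose by 1.62 (adjusted p = 2.84e-09). The AP-1 subunits FOSL1 (-0.03, adjusted p = 0.765) and JUND (0.17, adjusted p = 0.19) did not pass. FOS (1.07), FOSB (1.50), FOSL2 (0.997) and JUN (1.09), also AP-1 subunits, rose. RELA, NFKB1, REL, NFKB2, FOSL1, JUND, FOS, FOSB, FOSL2 and JUN were chosen after their values were seen.

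**Figure D4:**
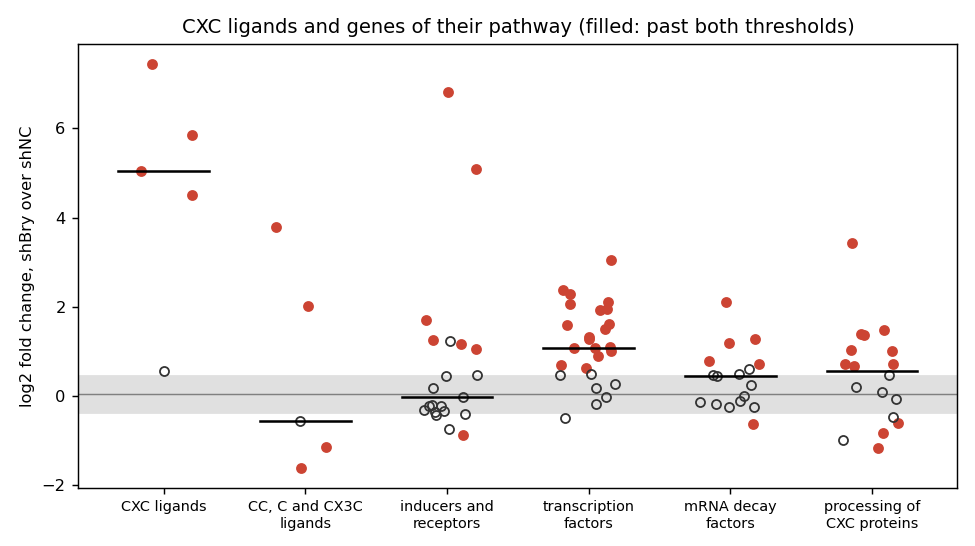
Fitted log2 fold change of shBry over shNC for each tested gene of the listed CXC genes and of 5 related lists, with filled points for genes past both thresholds, a bar at the median of each list, and a grey band for the middle 50% of all tested genes. The 5 tested CXC genes have a median of 5.05, the transcription factors 1.08, and the inducers -0.02 with IL1A and IL1B far above the rest.

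Factors that control the decay of CXC mRNAs were 17 genes, all tested, and 6 (35.3%) passed, 5 higher and 1 lower, a share near the 32.4% of all tested genes. Their median log2 fold change was 0.43. ZC3H12A (regnase-1), a nuclease that cleaves inflammatory mRNAs, rose by 2.10 on the log2 scale (adjusted p = 6.34e-10), from 16.5, 17.2 and 15.98 CPM in shNC to 74.8, 67.5 and 70.5 CPM in shBry. ZFP36 (tristetraprolin), which binds the AU-rich element counted above and speeds decay, rose by 1.27 (adjusted p = 1.63e-07), and its relative ZFP36L1 by 0.72 (adjusted p = 2.31e-06). ZC3H12C rose by 1.19 (adjusted p = 3.48e-05). RC3H1 (roquin-1) also passed (0.77, adjusted p = 0.00702), although its groups overlapped, and without shBry replicate 2 it fell under the fold change limit (0.57). HNRNPD (AUF1), another binder of AU-rich elements, fell by 0.64 on the log2 scale (adjusted p = 2.44e-05). ZC3H12A and ZFP36 were thus higher in the same libraries as the CXC mRNAs they are known to act on.

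Enzymes and proteoglycans that process, cleave or bind CXC proteins were 25 genes, of which 18 were tested and 12 (66.7%) passed, 9 higher and 3 lower, where 32.4% of all tested genes passed, 17.1% higher and 15.2% lower. Their median log2 fold change was 0.57. As this list too was chosen with earlier results of these data known, nothing is read from its share. MMP1, a collagenase, had the largest rise, with 121, 128 and 136 counts in shNC and 1201, 1474 and 1607 in shBry (log2 fold change 3.43, SE 0.12, adjusted p = 3.52e-11). MMP9, a gelatinase known to trim CXCL8 to a more active form, rose by 1.48 on the log2 scale (adjusted p = 3.07e-07), and CTSS, a cysteine protease, by 1.38 (adjusted p = 1.61e-06). PLAU, the urokinase-type plasminogen activator, rose by 0.71 (adjusted p = 3.74e-06). Of the cell surface proteoglycans, SDC4 rose by 1.01 (adjusted p = 1.84e-07) and SDC3 fell by 0.83 (adjusted p = 9.71e-07). SDC2 fell by 1.18 (adjusted p = 0.00028) and SDC1 did not pass (-0.07, adjusted p = 0.437), both looked up after their values were seen. Of the sheddases of CXCL16, ADAM17 rose by 0.66 on the log2 scale (adjusted p = 6.11e-05), and ADAM10 had a log2 fold change of -0.49 (adjusted p = 0.00111), under the fold change limit.

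Genes around the chromosome 4 cluster were examined from 1 Mb before CXCL8 to 1 Mb after CXCL2 (chr4:72740506-75099293). Apart from the 6 listed genes, 39 genes are annotated there, 25 were in the table, 12 of these were at 0 in all libraries and 8 were tested. Of the 8, 5 (62.5%) rose and none fell, where 17.1% of all tested genes rose and 15.2% fell. The 3 tested genes before CXCL8, COX18 (log2 fold change 0.07, adjusted p = 0.752), ANKRD17 (0.01, adjusted p = 0.958) and HMGA1P2 (-0.12, adjusted p = 0.475), did not pass. HMGA1P2 is annotated as a processed pseudogene within the bounds of ANKRD17, so it may not be a separate reading of the locus. The 5 genes that rose all lay beyond CXCL2. Of these, 3 are ligands of the epidermal growth factor receptor. EPGN, which encodes epigen and starts 568 kb from the CXCL8 start, had 12, 16 and 21 counts in shNC and 219, 521 and 296 in shBry (4.32, SE 0.29, adjusted p = 3.05e-08). AREG, amphiregulin, at 705 kb, had 48, 22 and 45 against 255, 272 and 311 counts (2.82, SE 0.23, adjusted p = 2.06e-07). EREG, epiregulin, at 625 kb, had 5, 12 and 5 against 21, 41 and 31 counts (SE 0.41, adjusted p = 0.000891). With so few counts in shNC, EREG passed the filter through its shBry counts and could hardly have been called lower. It could not be tested when 10 counts were required in every library, which left 4 calls at the locus. The share of rises given above therefore depends in part on the filter. PARM1 (1.19, adjusted p = 0.000576) and MTHFD2L (0.71, adjusted p = 0.00479), the nearest tested neighbour of CXCL2, rose least, and MTHFD2L fell under the fold change limit without shNC replicate 1 (0.56). None of the 8 non-listed genes between CXCL8 and CXCL2 in the table had enough counts to be tested, so within the cluster itself only the chemokine genes were read.

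**Figure D5:**
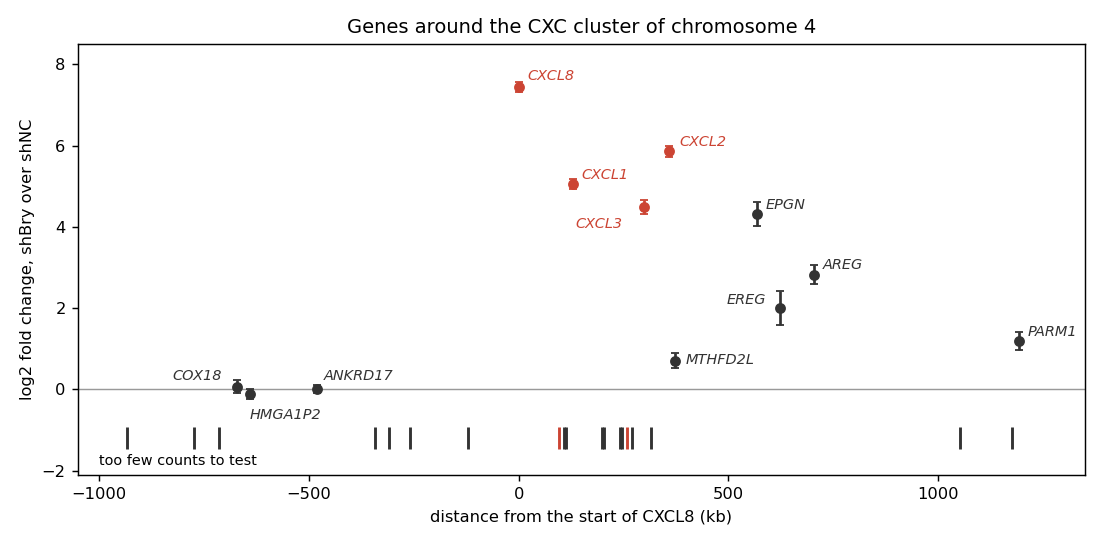
Fitted log2 fold change of shBry over shNC, with bars of 1 SE, against the distance of each gene's start from that of CXCL8 in kb; ticks mark genes in the table with too few counts to test, in red where listed. CXCL8, CXCL2, CXCL1 and CXCL3 lie at 4.50 or above, EPGN, AREG and EREG follow beyond CXCL2, and the 3 genes before CXCL8 lie at 0.07 or below.

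The genes whose profile over the 6 libraries was most like that of CXCL8 were found by the root mean square distance between log2 CPM profiles centred on their own mean, among 13734 genes whose mean level reached 1 CPM. CSF2, which encodes granulocyte-macrophage colony-stimulating factor, was the closest (distance 0.23), with 37 to 48 counts in shNC and 5686 to 7040 in shBry. IL1A followed at 0.33 and IL6, the interleukin 6 gene, at 0.42, with 7 to 10 counts against 854 to 1232. OLAH, a thioesterase of fatty acid synthesis, came next at 0.47, but it was at 0 in all 3 shNC libraries, so its distance depends on the offset of 0.01 CPM used for logarithms, and its level was at least 21.4-fold higher in shBry against 3 counts per library. ALOX5AP, needed for leukotriene synthesis, was the fifth at 0.65, with 8 counts summed over shNC and 749 over shBry, a ratio of 89.9 with an exact 95% counting interval of 45.4 to 209. The measure rests on 6 libraries in 2 groups, so it mostly reflects the size of the difference between the groups.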

How the data were processed

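Total RNA of 3 MDA-MB-231 shBry and 3 MDA-MB-231 shNC samples was sequenced by the authors, who deposited raw read counts per gene symbol in 1 table, with no normalization. The submitters' processing notes name HISAT2 2.0.4, HTSeq and GRCh38. The annotation and the strand setting are not given in the sources used here. The table also held 9 columns without values. Samples were grouped by the hairpin label.

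Counts were filtered with filterByExpr (minimum count 10), scaled by TMM and compared in edgeR 4.0.16 (R 4.3.3) by its quasi-likelihood test. Calls required a fold change above 1.5 and an adjusted p below 0.05 (Benjamini-Hochberg). CPM are TMM-normalized, and errors are SD over 3 libraries or the SE of the fit. The fits were tested on simulated data. Alternatives were DESeq2 1.42.0, voom of limma 3.58.1, other filters, scalings and fold limits, a replicate block and each library left out. Libraries of a group differed by more than sampling noise. Positions, lengths and shared stretches of 50 bases came from GENCODE 29 on GRCh38, where 34717 symbols matched, and promoters from RefSeq on GRCh38.p14.

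The 9 genes, the lists and the motifs were chosen with earlier results of these data known. All 9 genes are named, up to 6 called genes with the smallest adjusted p per related list, every called gene of the locus, and fixed receptors and sheddases. Genes named outside this rule are marked in the text, and the untested ligands and receptors, markers and motif genes are further exceptions.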

Additional observations from a re-analysis of the deposited data

How the results depend on the processing

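The 4 chemokine genes CXCL8, CXCL2, CXCL1 and CXCL3 passed both thresholds under every alternative run. With each library left out in turn, the log2 fold change was 7.32 to 7.54 for CXCL8, 5.74 to 5.92 for CXCL2, 4.92 to 5.16 for CXCL1, 4.39 to 4.61 for CXCL3 and 0.32 to 0.80 for CXCL16, the number of listed genes called was 4 to 5, and the number of all genes called was 4587 to 5025. Of all genes, 4945 were called with a fold change limit of 1.5, 2297 with a limit of 2 and 8139 with none. A limit of 2 left 3 of the decay factors and 7 of the processing genes called, and no limit gave 10 decay factors and 12 inducers. With at least 10 counts in every library, 2 CC, C and CX3C ligands were called. MTHFD2L (0.56 without shNC replicate 1) and RC3H1 (0.57 without shBry replicate 2) fell under the fold change limit. No direction was reversed. In all, 582 values of single genes or of their order per length were unchanged. Unchanged means the same direction and call, a fold change within 1 SD for the listed genes, or the same order. A further 182 counts and medians stayed within 1.5 times the reported count or within 1 SD. CXCL16, described with no test, passed both thresholds without shNC replicate 1 or shBry replicate 1, which gives the 5. The deviations of samples with the same replicate number had correlations of 0.25, -0.13 and -0.05. Those of samples with unlike numbers ran from -0.30 to 0.31. Pairing by number was thus not seen, and deviations from means of 3 libraries cannot exclude it. With the replicate block, 4914 genes and 4 of the listed genes were called. Depth limits CXCL5, CXCL6, CXCL12, CXCL14 and the receptors, which had too few counts for any statement below 0.131 CPM.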

Other observations

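The kB motif of the chromosome 4 chemokine genes was also looked for in all other promoters, a list chosen after the values were seen. Of 153 genes with the motif, 109 that are not among the 9 were in the table and 60 of them were tested. By the edgeR quasi-likelihood test, adjusted after Benjamini and Hochberg, 20 (33.3%) were called higher and 9 (15.0%) lower in shBry, beside 17.1% and 15.2% of all tested genes, and the median log2 fold change was 0.30, beside 0.03. As this late list also shares genes such as NFKBIZ with the transcription factors above, nothing is read from these shares. ICAM1, an adhesion molecule that neutrophils bind, was higher with a log2 fold change of 1.59, TNFRSF9 (4-1BB) with 2.70 and NFKBIZ with 2.38. At the same distance from the start as in the chemokine genes, the motif was found in 5 other genes. CGA and LOC105379007 were at 0 in all libraries, LOC124904529 was not in the table, and CCDC3 did not pass (log2 fold change -0.89, SE 0.38, adjusted p = 0.0589). NDRG2 went the other way, with 264 to 318 counts in shNC and 49 to 70 in shBry, and fell by 2.38 on the log2 scale (SE 0.17, adjusted p = 6.82e-08).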
